A study of Mus musculus with 27 samples.

Results

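The 4 libraries described here compare *Setdb1* cKO iMEFs given 4OHT and control siRNA (labelled 4OHT + siCtrl, n = 2) with the same cells given control siRNA alone (siCtrl, n = 2). They were chosen by their labels, out of 27 libraries in the series and 8 in its siRNA experiment. iMEFs are mouse embryonic fibroblasts that were immortalized, here with a *Setdb1* gene that can be deleted on treatment with 4OHT (4-hydroxytamoxifen). All 4 cultures carry the conditional allele and were transfected with control siRNA, so the groups differ in 4OHT, which was added at day 0, and in the deletion that it triggers. RNA was harvested at day 6. The cells come from 1 clone, which was grown again from single cells. The promoter that drives the recombinase is not given in the sources used here, and the comparison holds no 4OHT-treated cells without the conditional allele. The labels do not say that replicates were separate cultures, so the spread that p-values measure may be technical. In the main fits that spread is shared by all 8 libraries of the siRNA experiment or more, and is not that of these 4 alone. The pair labelled 4OHT + siCtrl differed more than the other pairs compared here.

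Setdb1 is a histone methyltransferase that places H3K9me3 on chromatin, and it is best known for silencing endogenous retroviruses (ERVs), the integrated copies of past retroviral infections. Zinc finger proteins that bind retroviral DNA bring it to these sites through the co-repressor Trim28. Cells sense foreign or misplaced nucleic acids with sensors such as Ifih1, which lead to the production of type I interferon (IFN). Secreted IFN binds the receptor Ifnar1 and Ifnar2, and a complex that holds Irf9 then switches on the IFN-induced genes through a DNA motif upstream of them.

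That motif can be seen in 4 IFN-induced genes which behaved in different ways here. *Cxcl10* and *Rsad2* were at least 2-fold above both siCtrl libraries in both libraries labelled 4OHT + siCtrl, whereas *Isg15* and *Ifit1* were so in replicate 1 and not in replicate 2. The 250 bases upstream of each start are given 5′ to 3′ on the gene's strand (RefSeq, GRCm38.p6), at chr5:92348890-92349139 (minus strand) for *Cxcl10*, chr12:26456453-26456702 (minus) for *Rsad2*, chr4:156200819-156201068 (minus) for *Isg15* and chr19:34640639-34640888 (plus) for *Ifit1*. Capitals mark the motif searched for, which is GAAA, any 2 bases and GAAA again, or on the other strand TTTC, any 2 bases and TTTC.
Cxcl10: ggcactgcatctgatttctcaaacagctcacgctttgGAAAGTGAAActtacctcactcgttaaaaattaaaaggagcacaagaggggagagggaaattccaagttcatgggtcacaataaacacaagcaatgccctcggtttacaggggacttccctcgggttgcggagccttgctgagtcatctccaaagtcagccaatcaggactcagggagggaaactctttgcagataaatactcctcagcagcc
Rsad2: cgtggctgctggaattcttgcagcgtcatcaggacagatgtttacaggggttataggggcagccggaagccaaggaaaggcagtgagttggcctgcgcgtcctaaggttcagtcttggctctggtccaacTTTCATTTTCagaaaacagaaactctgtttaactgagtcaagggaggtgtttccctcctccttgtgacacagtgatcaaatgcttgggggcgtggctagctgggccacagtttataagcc
Isg15: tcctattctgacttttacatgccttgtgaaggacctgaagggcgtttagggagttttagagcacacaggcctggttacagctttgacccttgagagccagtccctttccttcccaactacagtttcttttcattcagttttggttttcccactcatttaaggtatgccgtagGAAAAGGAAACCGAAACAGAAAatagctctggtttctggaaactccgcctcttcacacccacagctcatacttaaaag
Ifit1: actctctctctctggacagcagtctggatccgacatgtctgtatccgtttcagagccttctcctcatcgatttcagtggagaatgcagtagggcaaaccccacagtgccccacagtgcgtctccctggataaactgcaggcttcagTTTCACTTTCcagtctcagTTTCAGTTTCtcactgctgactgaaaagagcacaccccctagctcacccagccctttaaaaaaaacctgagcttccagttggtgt
The motif began 213 bases upstream of the start in *Cxcl10* and 120 bases upstream in *Rsad2*. *Ifit1* held 2 copies, from bases 104 and 85 upstream, and *Isg15* held 3 overlapping copies from bases 78, 72 and 66 upstream. Of 27025 symbols with such an upstream sequence, 936 (3.46%) held the motif. Of the 46 tested IFN-induced genes with a sequence, 13 (28.3%) held it, so that the 4 genes shown, chosen with the motif, do not stand for the list. A match is a description of these letters and does not show binding.

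Values are FPKM, that is fragments per kilobase of transcript and per 1 M mapped fragments, as deposited for each library. Depth implied by the confidence intervals of genes with 1 exon was 14.1 to 15.3 M fragments per library. In all, 10715 genes reached 1 FPKM in at least 2 of the 8 libraries of the siRNA experiment and were tested with limma on log2(FPKM + 0.1), a scale on which the fold changes of low genes are understated. A gene was called at an adjusted p-value under 0.05 (Benjamini-Hochberg) and a fold change of at least 2. Fibroblast and matrix genes summed to 8457 and 8617 FPKM in siCtrl and to 3720 and 5099 FPKM in 4OHT + siCtrl, with *Tcf21* at 0 in all 4 libraries. Haematopoietic and endothelial markers summed to at most 10.3 and 0.826 FPKM in any of the 4 libraries. In bulk RNA, fewer cells of a type and less RNA per cell cannot be told apart.

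The targeted gene did not separate the groups. *Setdb1* (chr3:95127447-95161124, mm9) was at 7.40 and 6.48 FPKM in siCtrl, and at 7.58 and 5.00 FPKM in replicates 1 and 2 of 4OHT + siCtrl. Replicate 1 was thus above both siCtrl libraries, and the log2 fold change was -0.17 (SE 0.24, adjusted p = 0.661, limma). A value for the whole gene can hide the loss of a part of it, so it neither establishes nor contradicts the labels. The libraries are therefore named here by their labels.

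A total of 283 genes were called higher (2.64% of the genes tested) and 370 were called lower (3.45%). Of the calls, 27 higher and 17 lower were listed at 0 in at least 1 of the 4 libraries. The 2 libraries labelled 4OHT + siCtrl differed more from each other than the replicates of the other groups compared here. Among genes above 0 in both, 10.4% were over 2-fold apart (1095 of 10498), against 1.63% between the siCtrl libraries (171 of 10479), 4.25% in the pair given 4OHT and Dnmt1 siRNA (4OHT + siDnmt1) and 4.77% at 4OHT day 6 without siRNA. For this reason each library was also set against the siCtrl pair. Replicate 1 was at least 2-fold above both siCtrl libraries for 678 genes (6.33%) and replicate 2 for 685 genes (6.39%), with 266 genes (2.48%) shared, which is 39.2% of the first list and 38.8% of the second. For genes at least 2-fold below both siCtrl libraries the counts were 614 (5.73%) and 691 (6.45%), with 369 (3.44%) shared, or 60.1% and 53.4% of the lists. In opposite directions, 12 genes were higher in replicate 1 and lower in replicate 2, and 9 the reverse. In all, 185 of 283 genes called higher and 299 of 370 called lower were 2-fold past siCtrl in both libraries. The calls borrowed the spread of all 8 siRNA libraries: with only these 4 in the fit, 49 genes were called higher and 133 lower, and without siCtrl replicate 2, 38 and 61.

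**Figure D1:**
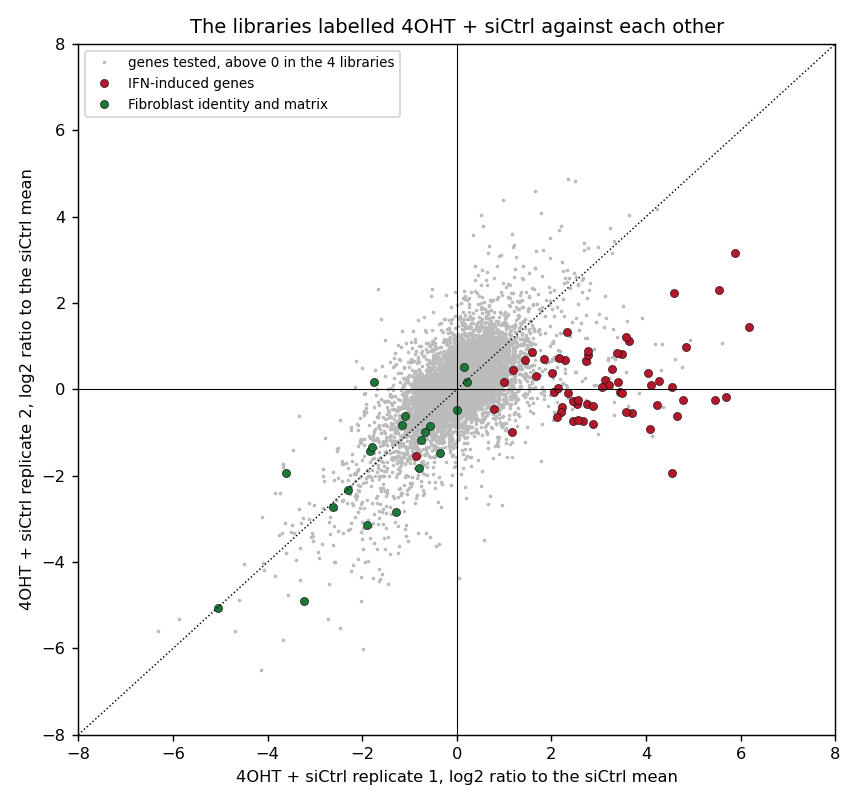
Each gene above 0 in all 4 libraries (10383 genes) is placed by the log2 ratio to the siCtrl mean of 4OHT + siCtrl replicate 1 (x axis) and of replicate 2 (y axis), with 60 IFN-induced genes and 20 fibroblast and matrix genes in colour. The IFN-induced genes lie to the right along the x axis, with list medians of 2.88 in replicate 1 and 0.04 in replicate 2, and the matrix genes lie low in both, with list medians of -1.28 and -1.44.

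Endogenous retroviruses of the VL30 family were higher in both libraries. VL30 elements are virus-like retroelements of rodents, and they are sorted into U3 classes by their LTR. They were measured as fragments at assembled loci without a gene name that lay at least 50% inside an annotated element, per 1 M fragments of the library's depth (FPM). The 71 class I elements held 73.0 and 60.9 FPM in siCtrl, and 2958 and 5186 FPM in 4OHT + siCtrl. Replicates 1 and 2 were thus 44.2-fold and 77.5-fold above the siCtrl mean, and the groups did not overlap. Scaled to the fragments at named genes, the log2 fold change was 5.73 (SE 0.26, adjusted p = 0.000321, limma). The number of class I elements with an assembled locus rose from 10 and 10 to 51 and 54. Their fragments made up 0.296% and 0.519% of the depth of replicates 1 and 2.

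Classes III and IV of VL30 were higher as well. Class III (66 elements) went from 8.98 and 4.40 to 920.2 and 1444 FPM, with a log2 fold change of 5.95 (SE 0.29, adjusted p = 0.000378, limma). On the scale of the fit its siCtrl levels (0.067 and 0.033) were under the added constant of 0.1, so this fold change is understated. By FPM, replicates 1 and 2 were 138-fold and 216-fold above the siCtrl mean. Class IV (25 elements) went from 2.87 and 5.43 to 221 and 378 FPM, with a log2 fold change of 5.44 (SE 0.32, adjusted p = 0.000803, limma). Its siCtrl levels in the fit (0.092 and 0.173) lay near the constant of 0.1, so this fold change is understated too. By FPM, replicates 1 and 2 were 53.3-fold and 91.2-fold above the siCtrl mean of class IV. In these 3 classes replicate 2 was above replicate 1.

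The other families did not pass the test. Class II, the VL30 group with coding regions (186 elements), had no fragment in siCtrl, and 11.3 and 40.5 FPM in 4OHT + siCtrl (adjusted p = 0.750, limma). MMERVK10C (167 elements), a family related to betaretroviruses, had none in siCtrl, and 74.1 and 44.1 FPM (1134 and 657 fragments) in 4OHT + siCtrl (adjusted p = 0.357, limma). Of these 4 libraries, both families were therefore seen in those given 4OHT, and the size of their fitted change is set by the added constant. RLTR4 (51 elements) was at 243 and 230, then 265 and 335 FPM (adjusted p = 0.510, limma). IAPEz, a family that DNA methylation is known to silence, held at most 2.13 FPM in any of the 4 libraries over 593 elements. The aligner kept 1 position for a read with several hits, so values are given for families and not for single copies, and elements without an assembled locus may still be transcribed.

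**Figure D2:**
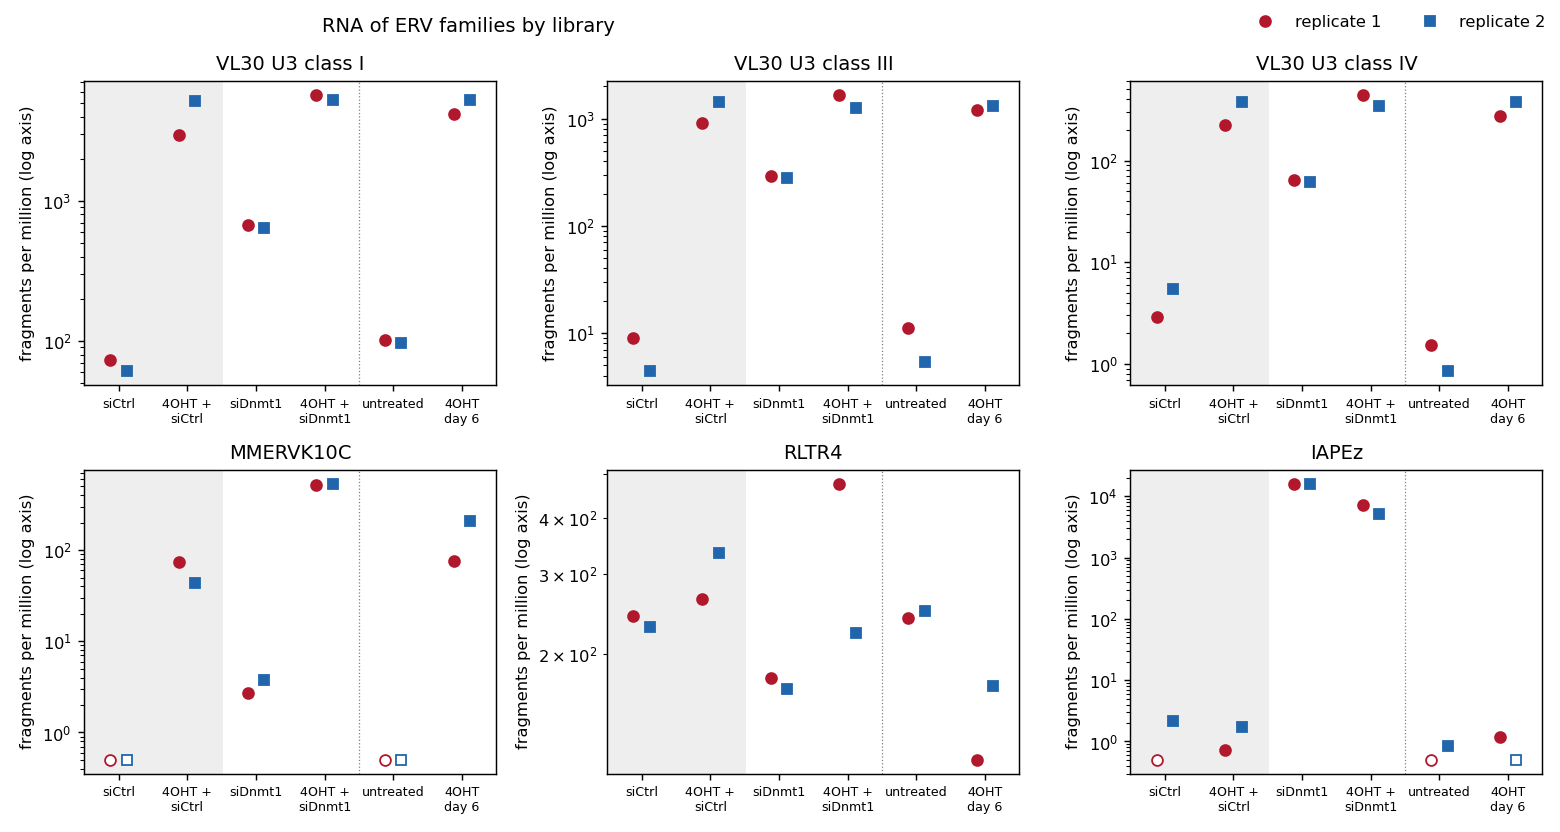
FPM (log axis) at assembled loci inside ERV elements, by family and library, in the siRNA experiment and at day 6 without siRNA, with open symbols for libraries at 0. VL30 class I lies at 60.9 to 73.0 in siCtrl and at 2958 and 5186 in 4OHT + siCtrl, and class III lies at 4.40 to 8.98 and at 920.2 and 1444.

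The IFN-induced genes separated the 2 libraries. The list holds 98 genes, of which 64 were tested; 4 were called higher and 1 lower (7.81%, beside 6.09% of all genes called in either direction). In replicate 1, 61 of the 64 were at least 2-fold above both siCtrl libraries (6.33% of all genes). In replicate 2, 8 of the 64 were (6.39% of all genes). In both siCtrl libraries 11 of the 64 were under 1 FPKM, as were 609 of the 10715 genes tested. Those 11 passed the filter through other libraries and had little room to be lower, so for them the counts are 1-sided. The median log2 ratio to siCtrl was 2.88 in replicate 1 and 0.04 in replicate 2, beside 0.07 over all genes in each. Replicate 1 was above replicate 2 for 64 of 64 members (49.8% of all genes), and replicate 2 was under both siCtrl libraries for 27 of 64 (37.5% of all genes). The median log2 fold change of 1.58, beside 0.08 over all genes, therefore describes neither library, and it was 2.87 without replicate 2 and 0.05 without replicate 1.

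*Irf7*, the transcription factor that amplifies type I IFN production, lies at chr7:148448605-148452380 (mm9). It was at 21.2 and 21.5 FPKM in siCtrl, 279 FPKM in replicate 1 and 14.6 FPKM in replicate 2 of 4OHT + siCtrl, that is 13.1-fold and 0.682-fold the siCtrl mean. The siCtrl values lay between those of the 2 treated libraries, and the log2 fold change of 1.58 (SE 1.21, adjusted p = 0.408, limma) did not exceed the spread between replicates. *Usp18*, which restrains IFN receptor signalling, was at 7.25 and 8.62 FPKM in siCtrl, then 136 and 4.10 FPKM (17.1-fold and 0.517-fold; adjusted p = 0.482, limma). For both genes replicate 2 was under both siCtrl libraries. Without replicate 1 their log2 fold changes turned to -0.55 and -0.93.

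Antiviral effectors showed the same split. *Mx2*, a dynamin-like GTPase, was at 2.50 and 1.96 FPKM in siCtrl, then 102 and 1.84 FPKM. *Zbp1*, a sensor of Z-form nucleic acids, was at 4.55 and 4.84 FPKM, then 132 and 3.92 FPKM. *Bst2*, which tethers budding viruses to the cell surface, was at 215 and 217 FPKM, then 1373 and 129 FPKM. In each of them replicate 1 stood far above the other 3 libraries and replicate 2 was the lowest. *Psmb8* (10.9 and 10.5, then 128 and 7.41 FPKM), of the immunoproteasome, and *Tap1* (8.93 and 9.54, then 68.1 and 7.10 FPKM), the peptide transporter, are genes of antigen presentation with that order of libraries. The antigen presentation list (12 tested, 0 called) had medians of 1.84 and 0.12, and the list of nucleic acid sensors (16 tested, 0 called) 1.91 and 0.17. Over all genes, 6.09% were called in either direction.

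*Isg15*, a ubiquitin-like modifier, and *Ifit1*, which binds viral RNA ends, differed from these in replicate 2. *Isg15* was at 80.9 and 85.6 FPKM in siCtrl, then 937 and 147 FPKM, so that both treated libraries were above siCtrl, and the change was not called (log2 fold change 2.15, SE 0.78, adjusted p = 0.116, limma). *Ifit1* was at 28.7 FPKM in both siCtrl libraries, then 299 and 51.9 FPKM (adjusted p = 0.105, limma).

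A group of 8 members was at least 2-fold above siCtrl in both libraries, namely *Ifih1*, *Oas3*, *Oasl1*, *Mx1*, *Rsad2*, *Cxcl10*, *Znfx1* and *Epsti1*, with median log2 ratios of 4.72 in replicate 1 and 1.39 in replicate 2. The 4 IFN-induced genes called higher are among them. *Oasl1*, of the oligoadenylate synthetase family, was at 3.48 and 3.45 FPKM in siCtrl, then 209 and 31.9 FPKM (log2 fold change 4.52, SE 0.79, adjusted p = 0.0191, limma). *Cxcl10*, a chemokine that attracts T cells, was at 50.6 and 44.3 FPKM, then 1149 and 222 FPKM (3.41, SE 0.79, adjusted p = 0.0399, limma). *Rsad2*, which encodes the antiviral protein viperin, was at 1.55 and 1.88 FPKM, then 84.3 and 8.87 FPKM (3.93, SE 0.98, adjusted p = 0.0491, limma). The fourth, *Znfx1*, an RNA helicase, was at 5.27 and 4.90 FPKM, then 26.1 and 12.9 FPKM (1.84, SE 0.37, adjusted p = 0.0268, limma). In all 4 of them replicate 2 lay between siCtrl and replicate 1. None of the 4 passed with only these 4 libraries in the fit (adjusted p from 0.101 to 0.151, limma), or without either siCtrl library (adjusted p from 0.107 to 0.207). *Trim30a* and *Sp100* were at least 2-fold higher in replicate 1 and at least 2-fold lower in replicate 2, where *Sp100* was listed at 0; *Trim30a* was at 1.01 and 0.944 FPKM in siCtrl, then 25.2 and 0.180 FPKM.

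The members that were not 2-fold higher in replicate 1 were *Ifi27*, *Samhd1* and *Mov10*. *Ifi27* fell in both libraries, from 77.9 and 84.0 FPKM to 44.6 and 27.6 FPKM (log2 fold change -1.20, SE 0.22, adjusted p = 0.0215, limma). It was at 17.4 and 18.4 FPKM in untreated cells, then 70.5 and 88.2 FPKM at 4OHT day 6 without siRNA. Some members were assembled together with a neighbour and were not tested. Summed over the joined locus, *Ifit2*, *Ifit3* and *Ifit3b* were at 46.6 and 43.6 FPKM in siCtrl, then 775 and 62.1 FPKM. The locus of *Irf9* and *Rnf31* was at 35.2 and 34.1 FPKM, then 99.7 and 27.1 FPKM. In both loci replicate 1 was the highest library, and in that of *Irf9* replicate 2 was the lowest.

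**Figure D3:**
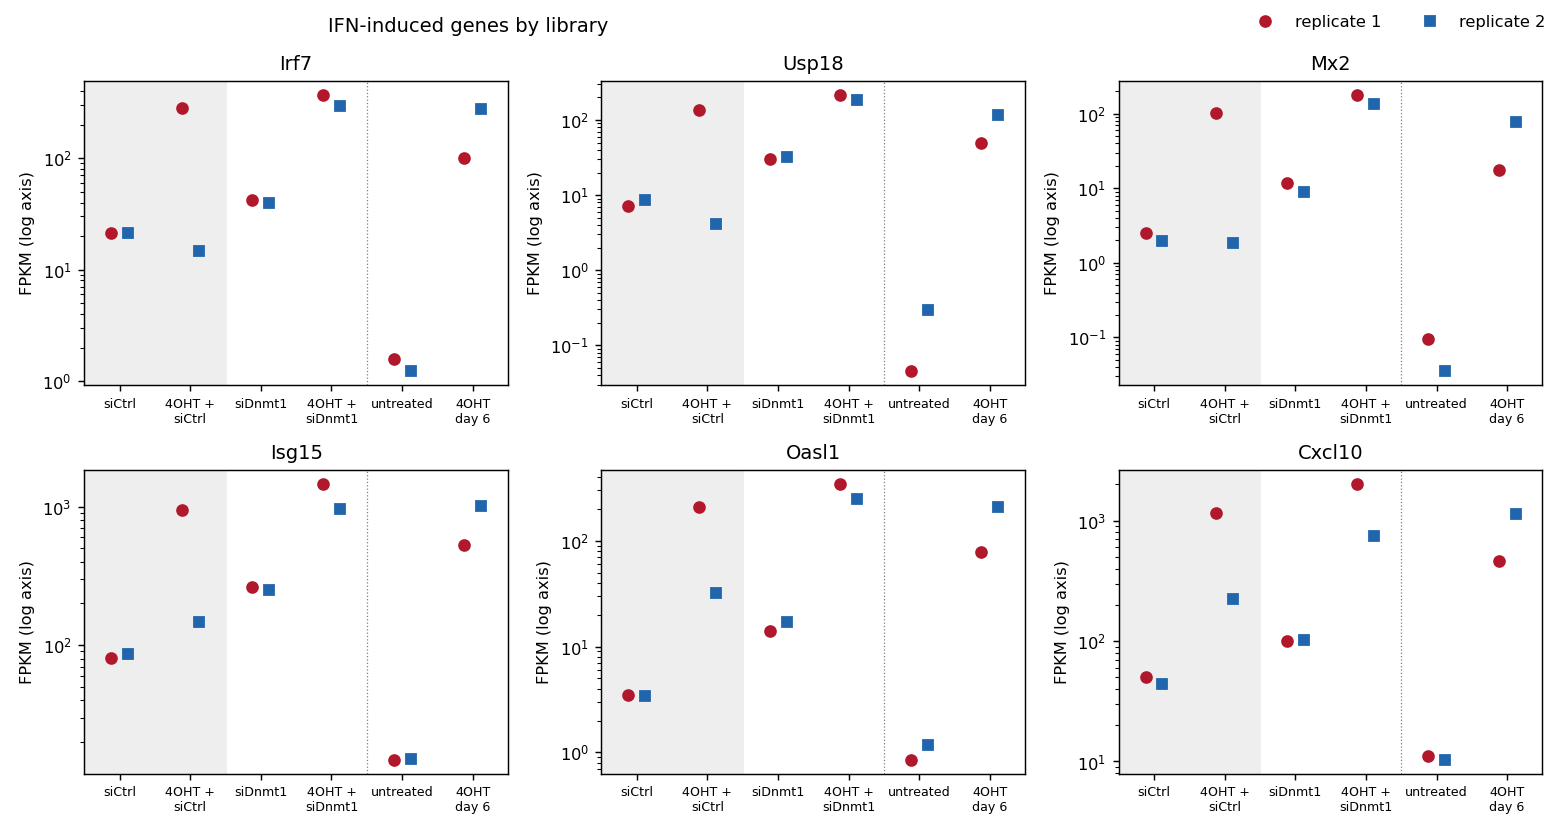
FPKM (log axis) of IFN-induced genes by library, red circles for replicate 1 and blue squares for replicate 2. In 4OHT + siCtrl, *Irf7* lies at 279 in replicate 1 and at 14.6 in replicate 2, beside 21.2 and 21.5 in siCtrl, whereas *Oasl1* lies at 209 and 31.9, both above the 3.48 and 3.45 of siCtrl.

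Of 16 genes of IFN ligands, receptors and signalling tested, *Ifnb1* was called higher (2.64% of all genes were) and *Socs3* lower (3.45%), with median log2 ratios of 0.49 in replicate 1 and -0.13 in replicate 2. The ligands *Ifna2*, *Ifna5*, *Ifnl2* and *Ifnl3* were under the filter. *Ifnb1*, which encodes IFN-beta, was listed at 0 in both siCtrl libraries, and at 4.08 and 0.727 FPKM in 4OHT + siCtrl. It passed the filter through libraries other than siCtrl, so it could not be called lower. As with the IFN-induced genes, its higher value was in replicate 1. Outside the list, *Ifnz*, an IFN-like ligand chosen after its values were seen, was at 0.0972 and 0 FPKM, then 1.37 and 1.58 FPKM. The locus listed under *Gm13272* and 8 further predicted genes was at 0.587 and 0.508 FPKM, then 6.22 and 5.67 FPKM (log2 fold change 3.22, SE 0.20, adjusted p = 0.000867, limma), so its replicates differed less than those of the IFN-induced genes. The receptor chains were *Ifnar1* (9.23 and 9.46, then 7.59 and 7.90 FPKM) and *Ifnar2* (20.7 and 23.4, then 23.9 and 17.2 FPKM). *Jak1* (37.9 and 36.5, then 39.1 and 36.8 FPKM), the kinase, and *Mavs* (10.9 and 11.4, then 11.6 and 12.5 FPKM), the adaptor of RNA sensors, lay close to siCtrl. The gene called lower, *Socs3*, is a feedback inhibitor of cytokine signalling (19.6 and 24.1, then 7.70 and 8.77 FPKM, log2 fold change -1.39, adjusted p = 0.00402, limma).

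Collagens and other extracellular matrix genes were lower in both libraries. Of 21 fibroblast and matrix genes tested, 10 were called lower and 0 higher (3.45% of all genes called lower), with median log2 ratios of -1.28 in replicate 1 and -1.44 in replicate 2. *Col1a1*, a chain of the main fibrillar collagen, was at 1106 and 1148 FPKM in siCtrl, then 317 and 416 FPKM (log2 fold change -1.63, SE 0.15, adjusted p = 0.00338, limma). *Col6a1*, of the beaded filament collagen VI, was at 556 and 569 FPKM, then 114 and 112 FPKM (-2.32, SE 0.11, adjusted p = 0.000401, limma). *Dcn*, the proteoglycan decorin, was at 49.4 and 49.2 FPKM, then 1.40 and 1.39 FPKM (-5.05, SE 0.11, adjusted p = 1.46e-05, limma). For these 3 genes the treated libraries lay close together, unlike the IFN-induced genes, and the calls of *Col1a1* and *Dcn* held under every alternative run. *Col3a1* was at 391 and 374 FPKM, then 31.0 and 99.1 FPKM. *Pdgfrb*, the PDGF receptor of mesenchymal cells, was at 34.7 and 32.5 FPKM, then 8.96 and 3.71 FPKM, and *Lox*, which crosslinks collagen, was at 142 and 148 FPKM, then 59.6 and 20.1 FPKM. The remaining genes called lower were *Col1a2*, *Col6a2*, *Postn* and *Lum*, the last listed at 0 in both treated libraries. Of the list members not called, *Vim* was at 925 and 965, then 1042 and 1358 FPKM, and *Thy1* was at 59.2 and 61.3, then 60.2 and 43.2 FPKM.

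**Figure D4:**
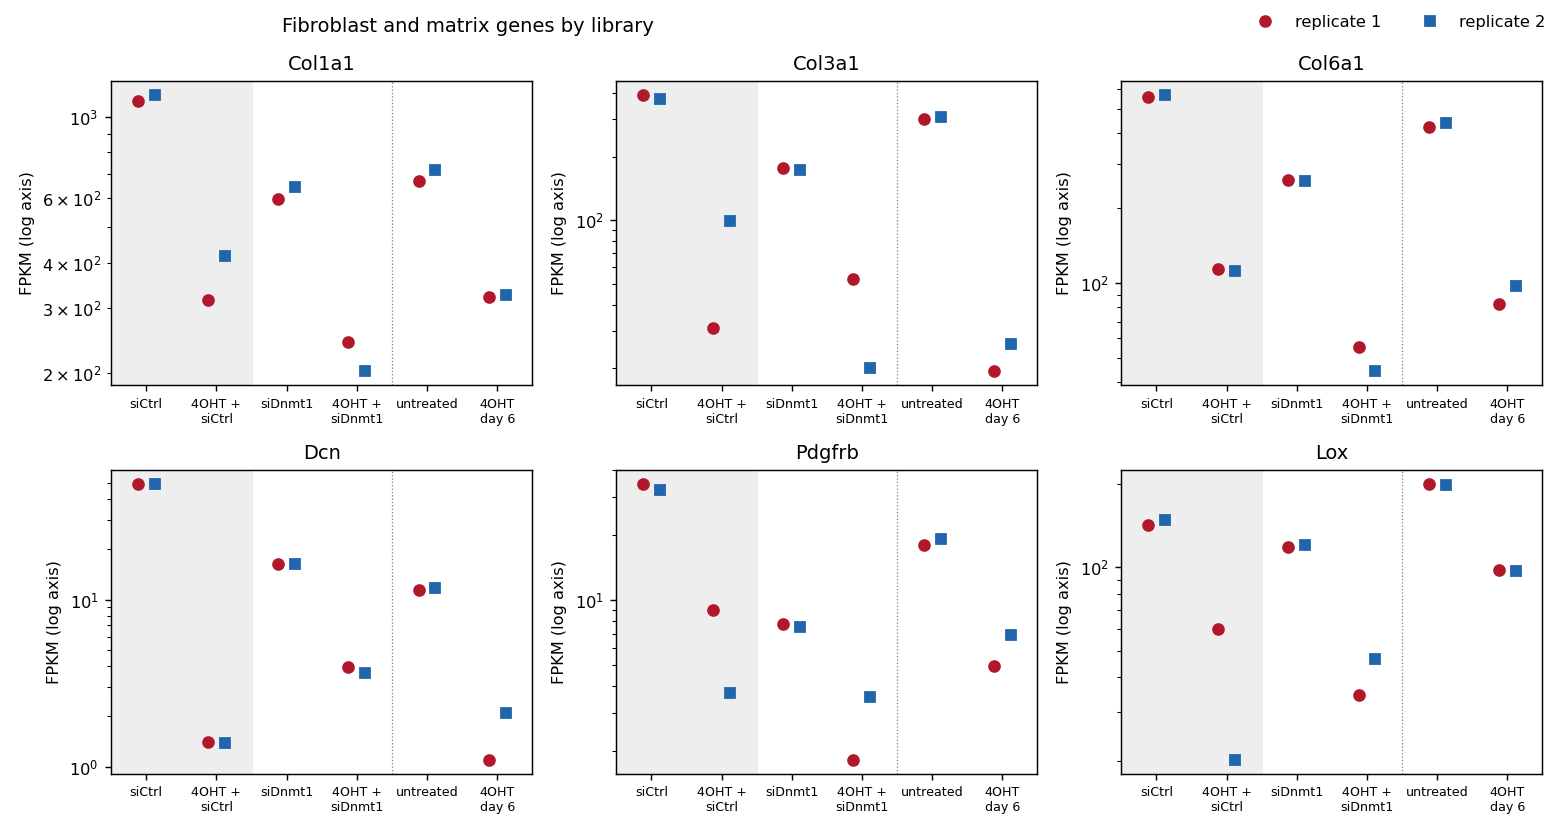
FPKM (log axis, a separate range in each panel) of 6 fibroblast and matrix genes by library, red circles for replicate 1 and blue squares for replicate 2. Both 4OHT + siCtrl libraries lie under both siCtrl libraries in every panel, for *Dcn* at 1.40 and 1.39 beside 49.4 and 49.2.

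Some members of the lists of proteases and contractile genes were called lower as well, in part with a gap between the libraries. Of 10 matrix metalloproteinases and inhibitors tested, *Timp3*, *Adamts1* and *Adamts5* were called lower (3.45% of all genes were) and 0 higher. *Timp3*, an inhibitor of metalloproteinases, was at 152 and 144 FPKM, then 74.6 and 58.2 FPKM. Of 16 contractile and TGF-beta response genes, *Myl9*, *Tpm1* and *Cyr61* were called lower and 1 member higher (2.64% of all genes), with list medians of -0.29 and -1.09. In replicate 1, 3 of the 16 were at least 2-fold above both siCtrl libraries and 4 at least 2-fold below (6.33% and 5.73% of all genes). In replicate 2 the counts were 1 and 9 (6.39% and 6.45%). At day 6 without siRNA the list medians were 0.96 and 1.02 against untreated cells, in the other direction. *Acta2*, smooth muscle actin, was at 409.7 and 438 FPKM, then 159 and 30.0 FPKM, and was not called (adjusted p = 0.0652, limma).

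Of the cholesterol synthesis and uptake genes, 18 were tested. Of these, 5 were called lower (*Fdps*, *Lss*, *Cyp51*, *Nsdhl* and *Dhcr7*), beside 3.45% of all genes, and 0 higher. In both treated libraries 16 were under both siCtrl libraries (24.4% of all genes). *Fdps*, which makes farnesyl pyrophosphate, was at 115 and 124 FPKM, then 55.7 and 60.1 FPKM (log2 fold change -1.04, adjusted p = 0.00402, limma). *Cyp51*, the lanosterol demethylase, was at 79.7 and 85.9 FPKM, then 33.6 and 31.0 FPKM (-1.36, adjusted p = 0.00147, limma). The replicates of both genes lay close together.

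Of 23 growth factor genes tested, *Igf1*, *Igf2*, *Fgf7* and *Bmp4* were called lower (3.45% of all genes were) and *Gdf15* higher (2.64%). The list medians were 0.43 and -0.72. *Bmp4*, a ligand of the BMP pathway, was at 88.7 and 83.8 FPKM, then 8.67 and 10.1 FPKM (log2 fold change -3.19, SE 0.30, adjusted p = 0.00323, limma). *Igf2*, an imprinted growth factor, was at 26.1 and 25.3 FPKM, then 8.59 and 3.66 FPKM. Of 15 MAPK target genes, *Fosl1* was called higher (10.3 and 10.1, then 30.0 and 25.4 FPKM) and *Spry1* lower. Over all genes, 2.64% were called higher and 3.45% lower. *Fos*, an immediate early gene outside the MAPK list, was added with earlier results known. It was at 256 FPKM in both siCtrl libraries, then 46.3 and 5.43 FPKM (log2 fold change -4.00, SE 0.96, adjusted p = 0.0442, limma), the lower value again being in replicate 2.

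Stress response genes also split the libraries. All 18 tested genes of the Atf4 amino acid stress list were higher in replicate 1 than in replicate 2 (49.8% of all genes), with medians of 0.97 and -0.54. Of the 18, 2 were called higher (2.64% of all genes were). *Asns*, asparagine synthetase, was at 51.5 and 53.3 FPKM, then 127 and 29.1 FPKM. *Trib3* was at 9.78 and 11.3 FPKM, then 43.4 and 6.39 FPKM. In both genes siCtrl lay between the treated libraries. *Nupr1* was called higher, at 19.1 and 16.3 FPKM, then 75.4 and 42.6 FPKM. The other call, *Ddit3*, was listed at 0 in both siCtrl libraries, then at 113 and 37.3 FPKM. A listed 0 can be a failed estimate, so the size of the *Ddit3* change is not known. The p53 targets leaned the other way, with medians of 0.25 and 0.68 over 20 genes and 5 genes at least 2-fold higher in replicate 2 (6.39% of all genes) against 1 in replicate 1. Both treated libraries were above both siCtrl libraries for 12 of the 20 (34.4% of all genes). *Cdkn1a*, the inhibitor p21, was at 47.7 and 47.5 FPKM, then 57.5 and 103 FPKM, and *Mdm2*, which targets p53 for degradation, was at 48.0 and 41.4 FPKM, then 65.8 and 107 FPKM. Only *Gdf15* passed both criteria in this list (6.09% of all genes did).

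Cell cycle and DNA replication genes had medians of 0.05 and 0.02, with 0 of 27 called (6.09% of all genes were). Lists of glycolysis (13) and lysosome genes (15) also held 0 calls, and lists this short would hold few calls at the share of all genes. Among 23 silencing factors 3 were called higher (2.64% of all genes were). *Atf7ip*, the partner protein of Setdb1, was at 16.8 and 14.4 FPKM, then 40.6 and 35.2 FPKM (log2 fold change 1.28, SE 0.12, adjusted p = 0.00381, limma). *Zfp809*, a zinc finger protein that recruits silencing to retroviral primer binding sites, was at 5.68 and 5.57 FPKM, then 9.30 and 14.1 FPKM. The third, *2810474O19Rik*, was at 18.2 and 16.9 FPKM, then 76.1 and 65.9 FPKM (2.01, SE 0.11, adjusted p = 0.000562, limma). *Dnmt1*, the maintenance DNA methyltransferase, was at 80.5 and 73.4 FPKM, then 78.7 and 78.3 FPKM.

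**Figure D5:**
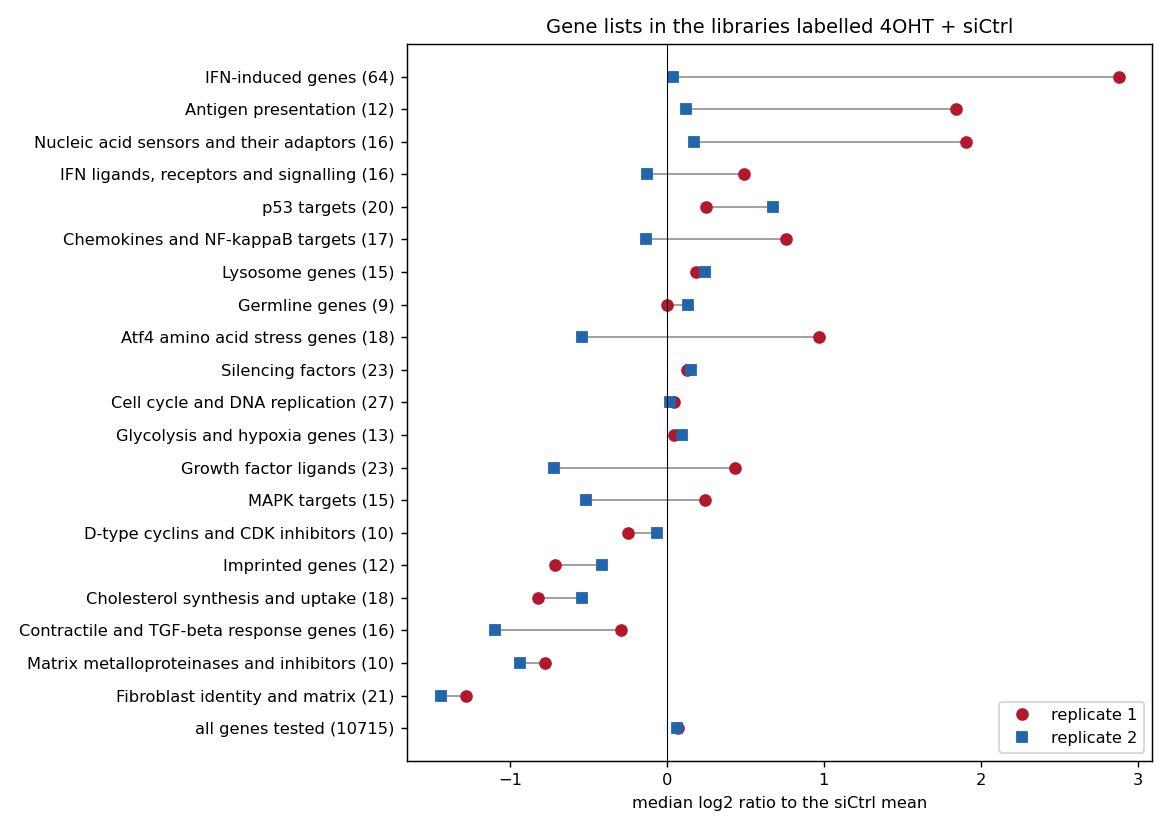
Median log2 ratio to the siCtrl mean over the members tested of 20 gene lists, for replicate 1 (red circles) and replicate 2 (blue squares) of 4OHT + siCtrl. IFN-induced genes lie at 2.88 and 0.04 and Atf4 genes at 0.97 and -0.54, whereas matrix genes lie at -1.28 and -1.44 and cell cycle genes at 0.05 and 0.02.

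The 10 most increased genes among those past the test, above 0 in all 4 libraries and not overlapping were *Oasl1*, *Cd209c*, *Rsad2*, *Prl2c5*, *Cyp1a1*, *Gsta4*, *Neurl3*, *Cxcl10*, *Itgb7* and the *Gm13272* locus. *Cd209c*, a lectin, was at 0.999 and 0.547 FPKM in siCtrl, then 15.8 and 15.2 FPKM (log2 fold change 4.21, SE 0.26, adjusted p = 0.000867, limma). *Itgb7*, an integrin chain of lymphocytes, was at 0.346 and 0.453 FPKM, then 4.84 and 5.31 FPKM. Both genes had near-equal values in the treated libraries. *Gsta4*, a glutathione transferase, was at 17.4 and 16.5 FPKM, then 86.4 and 501 FPKM, and *Cyp1a1*, a cytochrome induced by aryl hydrocarbons, was at 0.101 and 0.0507 FPKM, then 0.877 and 4.83 FPKM. In these detoxification genes replicate 2 was the higher library.

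The lowest by the same criteria were *Srd5a2*, *Bmp3*, *Lama4*, *Osr2*, *Dcn*, *Aspn*, *Ndnf*, *Cxcl14*, *Nell2* and *Mfap4*. *Srd5a2*, a steroid reductase, was at 24.9 and 19.6 FPKM in siCtrl, then 0.177 and 0.361 FPKM (log2 fold change -5.96, SE 0.68, adjusted p = 0.00596, limma). *Bmp3* was at 11.0 and 10.6 FPKM, then 0.0854 and 0.174 FPKM (-5.60, SE 0.43, adjusted p = 0.00200, limma). *Osr2*, a transcription factor of mesenchyme, was at 29.6 and 32.5 FPKM, then 1.10 and 0.543 FPKM (-5.15, SE 0.32, adjusted p = 0.000883, limma). With 4OHT, *Cxcl14* was at 5.62 and 7.78 FPKM and the others at 1.40 FPKM or less, and *Aspn* and *Mfap4* are, like *Dcn*, matrix genes.

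Genes with at least 5 FPKM that differed most between the 2 treated libraries were led by genes listed at 0 in 1 of them, such as *Psph*, *Ifi27l2a*, *Mrpl48* and *Bace1*, and such a 0 can be a failed estimate. Among genes above 0 in all 4 libraries, a restriction chosen after the values were seen, the 10 most above in replicate 1 were *Trim30a*, *Oas2*, *Mx2*, *Ifi44*, *Trim30d*, *Zbp1*, *Usp18*, *Oas3*, *Xaf1* and *Cxcl11*. Of these, all but *Trim30d* and *Cxcl11* are in the IFN-induced list. The 10 most above in replicate 2 included *Gsta4* and *Msln*, which was at 50.1 and 50.2 FPKM in siCtrl, then 42.6 and 229 FPKM. Epithelial markers were also highest in replicate 2, with sums of 4.31 and 4.64 FPKM in siCtrl, then 5.26 and 16.6 FPKM over 7 genes, of which *Krt8* was at 0.114 and 0 FPKM, then 0.215 and 6.97 FPKM. Their part in the gap between the libraries was not tested.

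With Dnmt1 siRNA in place of control siRNA, IFN-induced genes were higher in both libraries given 4OHT, with median log2 ratios to siDnmt1 of 2.85 and 2.03. At day 6 without siRNA, in another experiment of the series, the medians were 2.66 and 4.26 against untreated cells. *Irf7* was at 41.9 and 39.4 FPKM in siDnmt1, then 369 and 290.5 FPKM, and at 1.59 and 1.23 FPKM in untreated cells, then 99.5 and 277 FPKM. Replicate 2 of 4OHT + siCtrl was the only one of these 6 treated libraries whose *Irf7* was not above both of its controls. The test of the difference in *Irf7* did not pass, either against Dnmt1 siRNA (log2 difference 1.43, SE 1.71, adjusted p = 0.808, limma) or against day 6 without siRNA (-5.21, SE 1.34, adjusted p = 0.165, limma). Without 4OHT, siCtrl libraries also stood apart from untreated ones: 55 of 64 IFN-induced genes were higher in both siCtrl libraries than in both untreated libraries (31.7% of all genes), with a median log2 difference of 1.46 beside 0.00 over all genes. Transfection and experiment cannot be told apart there.

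The effect of 4OHT with control siRNA was tested against that with Dnmt1 siRNA, and 21 of 10715 genes differed (0.196%; 13 or 0.121% with a higher and 8 or 0.0747% with a lower effect under Dnmt1 siRNA), of which 15 were listed at 0 in at least 1 of the 8 libraries. The 4OHT comparison within Dnmt1 siRNA held 365 genes called higher (3.41%) and 247 called lower (2.31%), or 5.71% in all. The 6 genes above 0 in all 8 libraries were *Dcn*, *Osr2*, *Fbn2*, *Mrpl35*, *Sulf2* and *Ubxn7*. *Mrpl35*, of the mitochondrial ribosome, was at 8.77 and 9.22 FPKM in siCtrl, then 9.77 and 9.52 FPKM, and at 7.73 and 8.69 FPKM in siDnmt1, then 66.6 and 62.8 FPKM (log2 difference 2.86, SE 0.15, adjusted p = 0.00190, limma). It thus changed with 4OHT where Dnmt1 siRNA was given. *Dcn* was lower in siDnmt1 (16.3 FPKM in both) than in siCtrl, and was at 3.92 and 3.63 FPKM with 4OHT, a smaller drop (2.96, SE 0.16, adjusted p = 0.00190, limma). VL30 class III rose less from its higher level in siDnmt1 (294 and 281, then 1669 and 1252 FPM), with a log2 difference of -3.66 (SE 0.41, adjusted p = 0.0412, limma). The size of that difference depends on the added constant, since the siCtrl levels of class III lay under it. For class I the difference was -2.69 (SE 0.36, adjusted p = 0.0831, limma). The class III levels of 4OHT + siCtrl and 4OHT + siDnmt1 overlapped. Those of class I, at 5709 and 5267 FPM in 4OHT + siDnmt1, lay above 4OHT + siCtrl per depth, but overlapped when scaled to the fragments at named genes.

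The effect of 4OHT with control siRNA was also set against that at day 6 without siRNA, where 30 of 11320 genes differed (0.265%; 13 or 0.115% with a higher and 17 or 0.15% with a lower effect under control siRNA). Without siRNA, 549 genes were called higher (4.85%) and 689 lower (6.09%), or 10.9% in all. *Ifi27* was among them (log2 difference -3.34, SE 0.45, adjusted p = 0.0111, limma), as were *Bnip3*, a hypoxia-induced mitophagy gene, and the cholesterol genes *Nsdhl* and *Mvd*. *Bnip3* was at 12.8 and 13.5 FPKM in siCtrl, then 11.2 and 14.2 FPKM, whereas it fell from 53.2 and 51.5 FPKM to 11.5 and 10.2 FPKM without siRNA (2.21, SE 0.20, adjusted p = 0.000195, limma). *Nsdhl* was at 26.1 and 27.8 FPKM, then 13.1 and 13.0 FPKM, and without siRNA at 61.4 and 60.6 FPKM, then 15.6 and 13.3 FPKM (1.03, SE 0.16, adjusted p = 0.0231, limma). In both genes the treated libraries of the experiments lay at like levels, whereas their controls lay at different levels. For VL30 class I the difference was 0.34 (SE 0.39, adjusted p = 0.720, limma), with 101 and 96.0 FPM in untreated cells, then 4173 and 5241.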

How the data were processed

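RNA-seq libraries of *Setdb1* cKO iMEFs were analysed, 8 of the siRNA experiment and 10 of the inhibitor experiment. The authors mapped the reads to mm9 with TopHat2 (2.0.12), keeping 1 position for each multi-mapping read, and ran Cufflinks on every library with RefSeq genes as the guide; the deposited unit is FPKM per locus, with its confidence interval. Loci of one name were summed, 1286 names of small RNAs were left out, and a name had to be listed in every library of a fit. A gene that some library lists only together with a neighbour was therefore not tested under its own name. A locus with the same joint name in every library was tested as 1 entry. A gene needed at least 1 FPKM in at least 2 libraries. limma 3.58.1 (R 4.3.3; trended variances, two-sided, Benjamini-Hochberg) was fitted to log2(FPKM + 0.1) with all 8 siRNA libraries, or all 18 for the difference from day 6 without siRNA. All limma p-values rest on these fits. Of these, only the gene comparison of 4OHT + siCtrl with siCtrl was tried on simulated data. Differences between comparisons and ERV elements were not. In the simulation every group had the same spread. How the wider spread of the 4OHT + siCtrl pair affects the p-values was therefore not tested. With 2 libraries a group, the smallest exact permutation p is 0.333. Fragments at ERV elements were recovered from FPKM and the upper confidence limit, over elements whose positions the study lists; depth came from genes with 1 exon and limits detection. Gene names were those of the files, gene coordinates came from the GENCODE annotation of mm9, and upstream sequences came from RefSeq (GRCm38.p6). Other steps used Python 3.11.15 with pandas 2.3.3, numpy 2.4.6 and matplotlib 3.10.9.

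The members and the 26 gene lists (488 genes) were chosen with earlier results of these data known. Named genes are *Setdb1*, genes the study names, list members, the 10 highest and 10 lowest past the test, above 0 and not overlapping, the 5 most above and below in replicate 1 against replicate 2, and the 5 with the highest and lowest differences between comparisons; the text says where a gene was picked from its values. Values of some list members are not reported here. The authors' Cuffdiff tables (fold changes and p-values) were not used. Alternatives covered pseudocounts of 1 and 0.01, filters, scaling, the libraries fitted, the replicate number as a covariate, the call rule and the handling of loci.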

Additional observations from a re-analysis of the deposited data

Results flagged for a closer look

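The effect of 4OHT differed between control and Dnmt1 siRNA for 21 genes (13 with a higher and 8 with a lower effect under Dnmt1 siRNA), by a test of the difference itself with limma; 1074 genes had an unadjusted p under 0.05.

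The effect of 4OHT also differed between the control siRNA libraries and day 6 without siRNA for 30 genes, 13 with a higher and 17 with a lower effect under control siRNA. Transfection and experiment cannot be told apart in this difference. Of the 30 genes, 8 were listed at 0 in at least 1 of the 8 libraries compared.

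Loci without a gene name, which the gene comparisons did not use, numbered 3557 in replicate 1 and 4492 in replicate 2 of 4OHT + siCtrl, above the 2712 and 2500 in siCtrl. Assembled loci inside ERV elements are a part of them. No outlier test was made, since each group holds 2 libraries.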

How the results depend on the processing

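The count of genes called higher (283) was 787 with no fold limit, 160 with a pseudocount of 1 and 49 with only the 4 libraries compared, and 38 to 568 with 1 library left out. The count called lower (370) was 694 with no fold limit and 133 with only the 4 libraries, and 61 to 568 with 1 library left out. Without siCtrl replicate 1 or 2 there were 59 and 38 calls higher and 81 and 61 lower; without 4OHT + siCtrl replicate 1 or 2 there were 556 and 568 higher and 568 and 495 lower, the lone library being assumed to vary like the other groups. Calls higher were 43.3% of all calls, but 33.7% with median-ratio scaling (220 higher, 433 lower), 34.5% with quantile normalization, 32.9% with a pseudocount of 1 and 26.9% with only the 4 libraries. The median log2 fold change over all genes was 0.08, and 0.00 after median-ratio scaling.

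Genes differing from siDnmt1 (21) numbered 52 with no filter, 13 with the replicate block, 2 without genes listed at 0, and 11 to 482 with 1 library left out (482 without 4OHT + siCtrl replicate 1). Genes differing from day 6 without siRNA (30) numbered 19 without genes listed at 0 and 15 to 696 with 1 library left out (696 without 4OHT + siCtrl replicate 1). Leaving out genes at 0 and the element scale by depth were alternatives chosen after seeing the data. Replicate numbers did not pair the libraries (the correlation of replicate differences between siCtrl and 4OHT + siCtrl was -0.03), and with a replicate block 211 genes were called higher and 294 lower.

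The IFN-induced median (1.58) was 0.05 without replicate 1 and 2.87 without replicate 2 of 4OHT + siCtrl. With 1 library left out, *Irf7* ranged from -0.55 to 3.70, *Usp18* from -0.93 to 4.09 and *Mx2* from -0.26 to 5.46, the negative values without 4OHT + siCtrl replicate 1. *Setdb1* ranged from -0.46 to 0.13, the positive value without replicate 2. The VL30 class I value (5.73) ranged from 5.35 to 6.12 with 1 library left out, and from 4.54 to 6.12 over all alternatives. Of 836 values of 57 genes over the alternatives, 691 kept direction and side of the threshold, 137 lost the call, 4 gained one and 4 reversed. Causes were not tested. Groups of 2 libraries, at 14.1 to 15.3 M fragments, limit what can be detected.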

Other observations

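Clustered protocadherins are adhesion molecules of one gene array. Of 5 tested (of 20 listed), all of the beta cluster, *Pcdhb16*, *Pcdhb17* and *Pcdhb22* were called lower (3.45% of all genes were). *Pcdhb17* was at 4.41 and 5.03 FPKM in siCtrl, then 1.59 and 0.837 FPKM (adjusted p = 0.0211, limma). The alpha and gamma members, 9 of the list, are assembled as 1 locus, at 71.4 and 72.1 FPKM, then 57.8 and 75.8 FPKM (adjusted p = 0.648, limma, with joined loci summed), so its groups overlapped. Of 12 imprinted genes *Igf2* and *Peg10* were called lower (3.45% of all genes were). Of 10 D-type cyclins and CDK inhibitors *Cdkn2c* was called lower, at 65.6 and 59.7 FPKM, then 17.4 and 28.8 FPKM.

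Germline genes stayed low, with 1 of 9 called higher (2.64% of all genes were). All 9 were under 1 FPKM in both siCtrl libraries. They passed the filter through other libraries and had little room to be called lower, so the count is 1-sided. *Tdrd9*, a helicase of the piRNA pathway, was at 0.0132 and 0.0133 FPKM in siCtrl, then 0.626 and 1.08 FPKM. *Tubb3*, a tubulin used as a neuronal marker, was called higher at 16.2 and 17.8 FPKM, then 56.2 and 79.2 FPKM. Summed with its neighbour *Tcf25* it was not called, at 159.7 and 157 FPKM, then 197 and 220.2 FPKM (log2 fold change 0.39, under the 2-fold limit). *Myog*, *Ckm* and *Sox10* were at 0 in all 4 libraries. Of 17 chemokines and NF-kappaB targets, *Cxcl12*, a chemokine of stromal cells, was called lower (92.4 and 92.7, then 22.9 and 15.2 FPKM) and *Cxcl10* higher. Over all genes, 3.45% were called lower and 2.64% higher. *Nqo1*, a quinone reductase chosen after its values were seen, was at 26.2 and 28.8 FPKM, then 26.8 and 132 FPKM. Values of *Ccl5*, a chemokine that attracts T cells, were 24.0 and 20.9 FPKM, then 519 and 176 FPKM. Because 1 library of the siRNA experiment lists it with a neighbour, it was tested only as the joined locus *Ccl5*/*Heatr9*, which was called higher (log2 fold change 3.75, SE 0.48, adjusted p = 0.00849, limma).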
